A study of Homo sapiens with 18 samples.

Results

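The 10 genes described here belong to the antioxidant program of the transcription factor NRF2 and to glutathione metabolism, and they were followed in a human liver tumour line and in a line edited from it. They were chosen by name: NFE2L2, which encodes NRF2, and its inhibitor KEAP1, the target genes NQO1 and HMOX1, the glutathione synthesis genes GCLC and GCLM, the thioredoxin and sulfiredoxin genes TXNRD1 and SRXN1, and the glutathione peroxidase genes GPX2 and GPX4. The choice was made with earlier results of these data known, so shares of all genes stand beside the called counts as a description only. All 10 had a row among the 61806 genes of the count table, and all 10 were among the 19743 genes tested. HepG2 is an established hepatoma line and carried the genotype WT. APOA4-KO is the same line after CRISPR-Cas9 editing in exons of APOA4, an apolipoprotein gene, and was grown from single colonies. Each line was sampled at 0 h, in 21% oxygen and without treatment, and after 24 h and 48 h in 1% oxygen, which gave 6 groups of 3 libraries and 18 libraries in all. No group here was kept in 21% oxygen for 24 h or 48 h, so low oxygen and time in culture cannot be told apart. APOA4-KO is labelled as 1 line, so the edit and any other difference between the lines cannot be told apart either. The labels do not say whether the 3 libraries of a group came from separate cultures, and p-values therefore measure the spread between these libraries only.

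NRF2 is held in the cytosol by KEAP1, an adaptor of the CUL3 ubiquitin ligase that marks it for degradation. Oxidants and electrophiles modify cysteines of KEAP1, after which NRF2 escapes degradation, enters the nucleus, pairs with a small MAF protein and binds antioxidant response elements near its target genes. The repressor BACH1 competes for the same elements with the same MAF partners. Because this control acts mainly on the protein, NFE2L2 mRNA is not a measure of NRF2 activity. Hepatocytes rely on the program for making glutathione, for removing peroxides and quinones, and for breaking down heme.

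Antioxidant response element letters were searched for in the RefSeq promoter table (build GRCh38.p14), which holds 250 bases before and 50 bases after gene starts. The core searched was TGACNNNGC on both strands, and it occurred in 13.3% of the 35116 windows of the table. Of the 10 genes, 9 had a window, HMOX1 being the exception, and 5 of their 14 windows held a match. These windows belonged to 4 genes and held 7 matches in all. The matches are shown because NRF2 binds antioxidant response elements, and whether these letters play a part in the program was not tested. They are written 5′ to 3′ on the strand of the gene, with the match in capitals and 6 bases on either side.
GPX2, chr14:64942853-64942873, minus strand: gtttttGCTAAGTCAtcctgg
GCLM, chr1:93909450-93909470, minus strand: atttctGCTTAGTCAttgtct
KEAP1, chr19:10502788-10502808, minus strand: ggctctGCTTAGTCAtggtga
KEAP1, chr19:10502811-10502831, minus strand: ttattgTGACACGGCgggcgc
TXNRD1, chr12:104215674-104215694, plus strand: gggctaTGACTTCGCtgttgt
TXNRD1, chr12:104215765-104215785, plus strand: ccttcgGCTCCGTCAgttccc
TXNRD1, chr12:104286924-104286944, plus strand: atttctGCTTTGTCAttctga
Counted from the gene starts of this promoter table, the match of GPX2 began 122 bases before the start and that of GCLM 34 bases before it. The gene spans given below start elsewhere. Some of the matches, among them those of GPX2 and KEAP1, lie inside these spans. GCLM and KEAP1 shared the same 9 letters, GCTTAGTCA, in their matches. The windows of NFE2L2, NQO1, GCLC, SRXN1 and GPX4 held no match, which says only that these letters are not in these windows. A match is a run of letters and was not tested as a binding site. Letters of the hypoxia response element, ACGTG and GCGTG on both strands, occurred in 21.4% and 36.5% of all windows. ACGTG was found for GPX4 alone among the 9 genes, and GCGTG was found for all of them except GPX2.

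Libraries held between 76481820 and 91604947 counts. Values are given as CPM, counts scaled to a common library total after TMM normalization. The mRNA of the edited gene, APOA4, stayed detectable in APOA4-KO, at 551 to 702 counts per library against 702 to 1968 in HepG2, so the counts do not by themselves check the edit. Its log2 fold change relative to HepG2 was −0.23 at 0 h (edgeR adjusted p = 0.040), −1.35 at 24 h and −1.29 at 48 h (adjusted p = 9e-11). From 0 h to 48 h, APOA4 rose by 1.16 in HepG2 and had a change of 0.09 in APOA4-KO (edgeR adjusted p = 0.392). All 10 hypoxia targets examined, among them CA9 and VEGFA, rose from 0 h in both lines, with median log2 fold changes at 24 h and 48 h of 1.00 and 1.94 in HepG2 and of 1.74 and 2.55 in APOA4-KO. At 0 h, all 10 were higher in APOA4-KO than in HepG2, by a median of 0.47, and all 10 were higher at 24 h. At 48 h, 8 were higher in APOA4-KO and 2 lower, PFKFB4 and PDK1 (log2 fold changes −0.27 and −0.38). All 8 hepatocyte markers were expressed. Of 16 markers of leukocytes, endothelium, fibroblasts and bile duct cells, 10 had a mean of at least 1 CPM and none was at 0 in all libraries. The 5 leukocyte markers summed to 69.05 to 75.7 CPM in APOA4-KO at 48 h, mostly CD68, and to 51.15 to 53.35 CPM in HepG2 at 48 h. At 0 h the order was reversed, with 40.1 to 42.07 CPM in APOA4-KO and 43.11 to 51.2 CPM in HepG2. At 24 h the leukocyte sums overlapped. The 3 bile duct markers, mostly KRT19, were lower in APOA4-KO, with sums of 424 to 433 CPM in APOA4-KO and 763 to 775 CPM in HepG2 at 48 h, and of 427 to 448 and 651 to 664 CPM at 0 h. At 24 h these sums were 511 to 528 CPM in APOA4-KO and 534 to 558 CPM in HepG2. Endothelial markers summed to 7.91 to 10.2 CPM in APOA4-KO and 12.5 to 13.8 CPM in HepG2 at 48 h. At 0 h they summed to 13.99 to 16.7 and 11.32 to 13.39 CPM, and at 24 h the lines overlapped. Fibroblast markers summed to 36.54 to 40.32 CPM in APOA4-KO and 28.62 to 32.49 CPM in HepG2 at 0 h, and overlapped at 24 h and 48 h. The sum of the hepatocyte markers was higher in every APOA4-KO library than in every HepG2 library of the same time. The part of these markers in the results was not tested. In RNA from whole cultures, fewer cells that express a gene and less RNA per cell cannot be told apart.

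Before hypoxia, most of the 10 genes were lower in the edited line, GPX2 and NQO1 by the most. At 24 h the line difference was mixed in direction. At 48 h, GPX2, HMOX1 and NQO1 were over 2-fold lower in APOA4-KO, and NFE2L2, SRXN1, GCLC and TXNRD1 were higher. The result for TXNRD1 depended on the processing. A gene was called at a Benjamini-Hochberg adjusted p under 0.05 in edgeR's quasi-likelihood test. The shares of all tested genes given beside the counts were not matched to the 10 genes for count level. At 0 h, 0 of the 10 genes were called higher in APOA4-KO, where 12.9% of all tested genes were, and 8 were called lower, against 17.6% of all genes. At 24 h, 5 were called higher (23.6% of all genes) and 3 lower (24.6%). At 48 h, 4 were called higher (23.5%) and 5 lower (27.3%). The median log2 fold change of the 10 genes was −0.24, 0.05 and −0.11 at 0 h, 24 h and 48 h, beside −0.01, 0.01 and −0.04 over all tested genes. Calls whose log2 fold change was also above 1 in size numbered 1 at 0 h (GPX2, where 4.31% of all genes passed), 0 at 24 h (7.77%) and 3 at 48 h (NQO1, HMOX1 and GPX2, 13.6%).

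**Figure D1:**
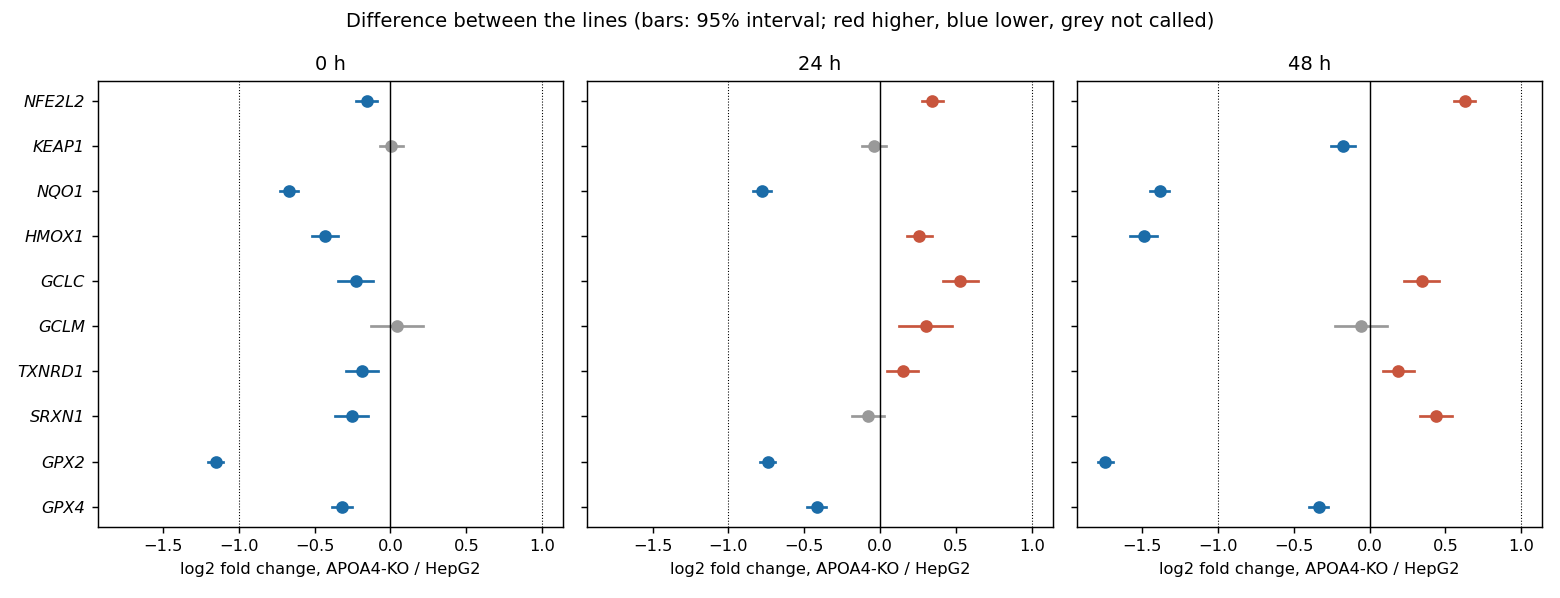
Log2 fold change of APOA4-KO over HepG2 for the 10 genes at 0 h, 24 h and 48 h, with 95% intervals, from a fit to all 18 libraries. Red marks genes called higher, blue lower and grey not called, and dotted lines stand at −1 and 1. GPX2 and NQO1 lie to the left in all 3 panels, HMOX1 moves from −0.43 to 0.26 and then to −1.49, and NFE2L2 moves from −0.16 to 0.63.

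From 0 h to 24 h in HepG2, no gene was called higher. The call was lower for 7 of 10 (18.3% of all genes) and higher for 0 (11.4%), and 0 passed the fold limit (3.08%). This count of lower calls depended on the scaling and the model: it was 10 of 10 with library totals alone and with limma on FPKM, 9 with limma and no filter, and 4 with only the compared groups in the fit. At 48 h, 3 genes were called higher (13.1%) and 3 lower (14.6%) than at 0 h, with 0 past the fold limit (2.18%). In APOA4-KO, 4 genes were called higher and 4 lower at 24 h (21.5% and 22.8% of all genes), and again 4 and 4 at 48 h (23.9% and 25.9%). None of the 10 passed the fold limit in APOA4-KO at 24 h (5.88% of all genes) or at 48 h (12.2%). Both time points of a line were compared with the same 3 libraries at 0 h, so the comparisons share them. The 10 genes were not tested between 24 h and 48 h. The medians of the 10 genes were −0.17 at 24 h and 0.05 at 48 h in HepG2, beside −0.03 and −0.03 over all genes, and 0.06 and 0.07 in APOA4-KO, beside −0.01 and −0.07.

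**Figure D2:**
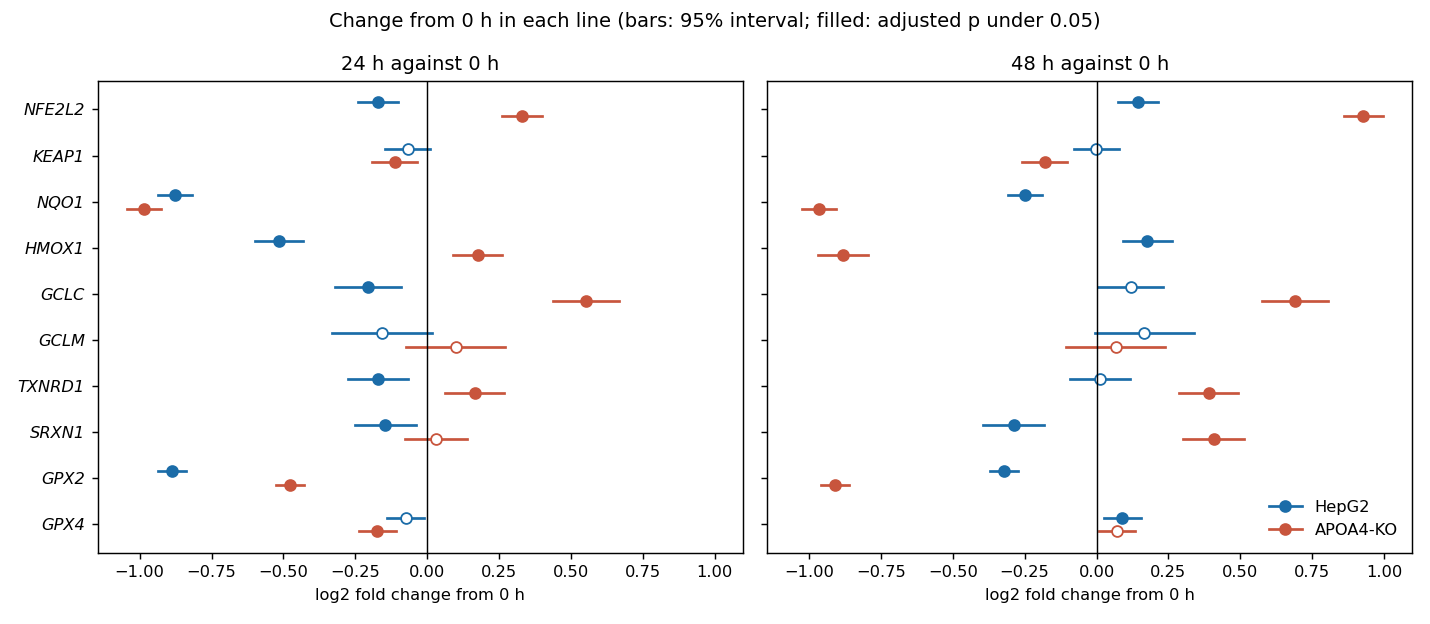
Log2 fold change from 0 h of the 10 genes in HepG2 (blue) and APOA4-KO (red) at 24 h and 48 h, with 95% intervals; filled points have an adjusted p under 0.05. NQO1 and GPX2 lie left of 0 in both lines and at both times, whereas NFE2L2 and GCLC in APOA4-KO lie right of 0 at both times.

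The change from 0 h differed between the lines, by a test of the difference itself, for 6 of the 10 genes at 24 h and for 8 at 48 h. At 24 h, 5 genes had the more positive change in APOA4-KO (16.8% of all genes) and 1 the more negative change (15.4%), and 0 differed by more than the fold limit (2.59%). At 48 h, these counts were 4 (18.6%) and 4 (17.8%), and 1 gene, HMOX1, passed the fold limit (7.42%). The median difference in change was 0.30 at 24 h and −0.06 at 48 h, beside −0.01 and −0.04 over all tested genes. When libraries were scaled by their total alone, the median of all genes moved by over 0.1 in some comparisons, to −0.19 for the lines at 48 h and to −0.23 for APOA4-KO from 0 h to 48 h. No call among the 10 genes changed its sign under any of the 28 alternatives tried.

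**Figure D3:**
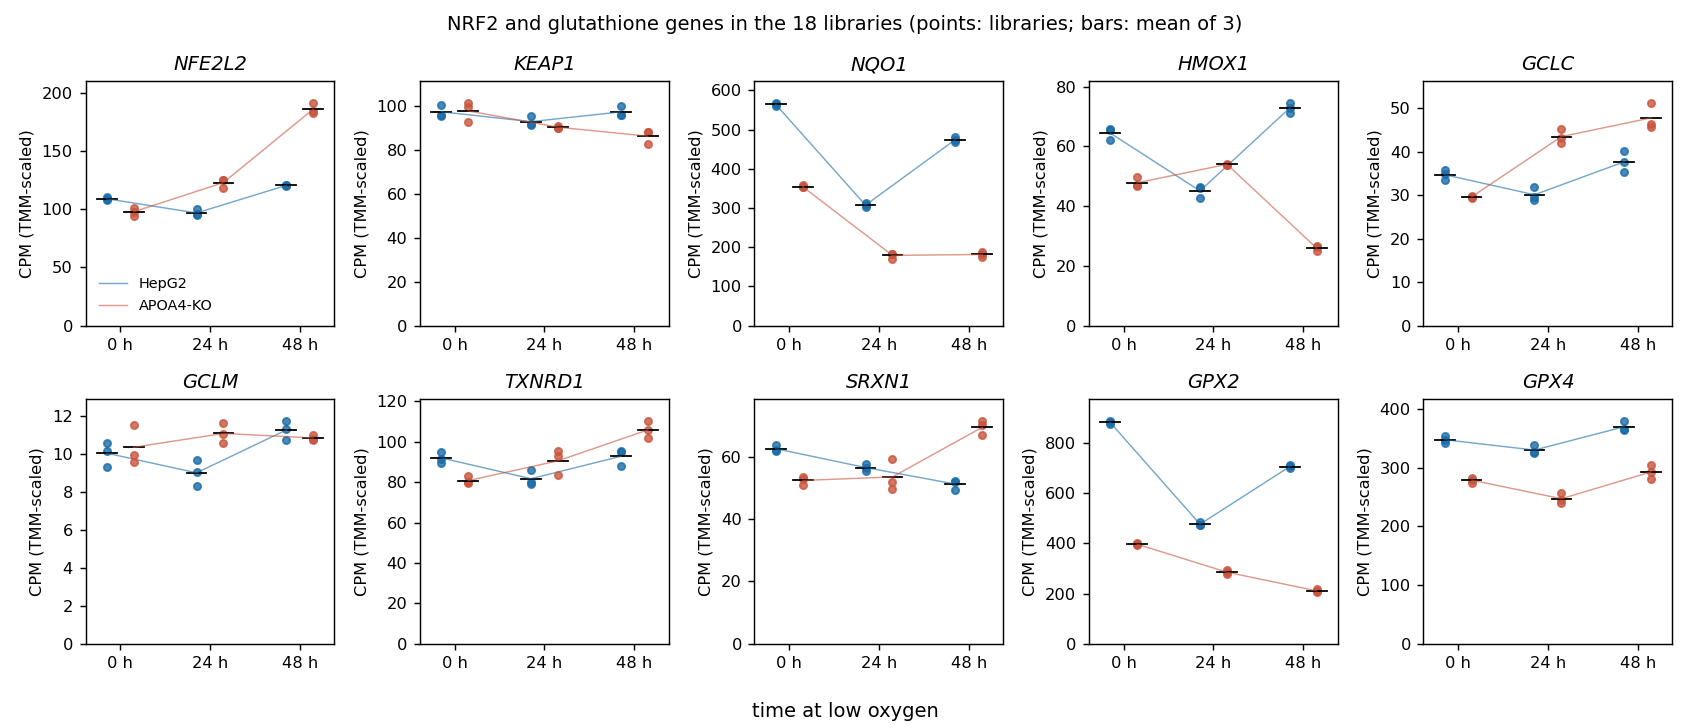
CPM of each of the 10 genes in all 18 libraries, HepG2 in blue and APOA4-KO in red, with time in low oxygen on the horizontal axis and the axis of each panel starting at 0. Points are libraries, black bars are means of 3 and lines join the means. GPX2 and NQO1 separate by line at every time, and HMOX1 crosses at 24 h.

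NFE2L2 (ENSG00000116044, minus strand of chr2:177227595-177392697) encodes NRF2 itself. The HepG2 libraries were at 108.6, 110.4 and 108.2 CPM in the 3 libraries at 0 h, at 94.8, 95.6 and 99.98 at 24 h, and at 121, 119.8 and 121 at 48 h. The APOA4-KO libraries were at 94.1, 97.9 and 101 CPM at 0 h, at 118, 125 and 125 at 24 h, and at 184, 182 and 191 at 48 h. The lines overlapped at no time, and the order of the lines at 0 h was the reverse of that at 24 h and 48 h. Relative to HepG2, NFE2L2 had a log2 fold change of −0.16 at 0 h (SE 0.03, edgeR adjusted p = 0.00097), of 0.34 at 24 h (SE 0.03, adjusted p = 3.7e-08) and of 0.63 at 48 h (SE 0.03, adjusted p = 6.2e-12). In APOA4-KO it rose from 0 h to 48 h by 1.90-fold, and in HepG2 by 1.11-fold. The difference between these changes was 0.78 on the log2 scale (SE 0.05, edgeR adjusted p = 1.3e-10). In the GENCODE annotation (version 29), 20.9% of the exon bases of NFE2L2 lie in exons of other genes as well, among them AC019080.1 on the same strand, with 196 to 520 counts per library, and AGPS on the other strand. How the authors counted reads in such overlaps is not stated.

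KEAP1 (ENSG00000079999, minus strand of chr19:10486120-10503741), which encodes the inhibitor of NRF2, varied least among the 10 genes. Its 18 libraries lay between 82.7 and 101 CPM, and the highest group mean was 1.13-fold the lowest. The lines did not differ detectably at 0 h (log2 fold change 0.01, 95% interval −0.07 to 0.08) or at 24 h (−0.04, −0.12 to 0.04). At 48 h, KEAP1 was at 82.7, 88.0 and 88.0 CPM in APOA4-KO and at 99.9, 96.0 and 95.9 in HepG2, without overlap. The log2 fold change was −0.17 (SE 0.04, edgeR adjusted p = 0.00054). From 0 h, KEAP1 fell in APOA4-KO by 0.11 on the log2 scale at 24 h (adjusted p = 0.016) and by 0.18 at 48 h (adjusted p = 0.0004). The call at 24 h was lost in 10 of 28 alternatives, in 8 of which a single library was left out (edgeR adjusted p = 0.053 to 0.208): HepG2 0 h replicates 1 and 2, HepG2 48 h replicates 2 and 3, APOA4-KO 0 h replicates 1 and 2, and APOA4-KO 24 h replicates 1 and 3. In HepG2, the change was −0.07 at 24 h (95% interval −0.15 to 0.01) and −0.00080 at 48 h (−0.08 to 0.08). With library totals alone KEAP1 fell in HepG2 at 24 h by 0.14 on the log2 scale (edgeR adjusted p = 0.004), the line difference at 48 h was −0.32, and the change in APOA4-KO at 48 h was −0.34.

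NQO1 (ENSG00000181019, minus strand of chr16:69706996-69726951) encodes a quinone reductase that passes electrons from NAD(P)H to quinones. In HepG2 it was at 567, 565 and 561 CPM at 0 h, at 303, 307 and 312 at 24 h, and at 481, 468 and 475 at 48 h. In APOA4-KO it was at 352, 354 and 358 CPM at 0 h, at 171, 183 and 184 at 24 h, and at 182, 188 and 175 at 48 h. Every library of APOA4-KO was below every library of HepG2 of the same time. In HepG2 the libraries at 48 h lay between those at 24 h and 0 h, and in APOA4-KO the libraries at 48 h overlapped those at 24 h. NQO1 was lower in APOA4-KO by 1.59-fold at 0 h (log2 fold change −0.67, SE 0.03, edgeR adjusted p = 1.5e-12), by 1.72-fold at 24 h and by 2.61-fold at 48 h (log2 fold change −1.39, SE 0.03, adjusted p = 9.5e-18). From 0 h it fell in both lines, by 0.88 and 0.25 on the log2 scale at the later times in HepG2 and by 0.98 and 0.97 in APOA4-KO. The fall at 48 h was deeper in APOA4-KO by a log2 difference of −0.72 (SE 0.04, edgeR adjusted p = 5.4e-11). At 24 h the corresponding difference was −0.11 (adjusted p = 0.043), and this call was lost in 20 of 28 alternatives, in 14 of which a single library was left out (adjusted p = 0.066 to 0.259), all except HepG2 24 h replicate 1, APOA4-KO 24 h replicate 2 and APOA4-KO 48 h replicates 2 and 3.

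HMOX1 (ENSG00000100292, plus strand of chr22:35380361-35394214) encodes heme oxygenase 1, which opens the heme ring and releases iron, carbon monoxide and biliverdin. The HepG2 libraries were at 65.5, 62.2 and 65.9 CPM at 0 h, at 46.1, 42.8 and 46.5 at 24 h, and at 74.5, 73.0 and 71.3 at 48 h. The APOA4-KO libraries were at 46.9, 49.8 and 46.8 CPM at 0 h, at 54.2, 53.9 and 54.0 at 24 h, and at 25.0, 26.3 and 26.5 at 48 h. The time courses ran in opposite directions: the lowest HepG2 group was at 24 h and the highest APOA4-KO group was at 24 h, with no overlap between the lines at any time. HMOX1 was lower in APOA4-KO at 0 h (log2 fold change −0.43, SE 0.04, edgeR adjusted p = 1.2e-07), higher at 24 h (0.26, SE 0.04, adjusted p = 2.1e-05) and lower at 48 h (−1.49, SE 0.04, adjusted p = 7.2e-16), the last being a 2.81-fold difference. From 0 h, HepG2 fell by 0.52 at 24 h and rose by 0.18 at 48 h on the log2 scale, whereas APOA4-KO rose by 0.18 and then fell by 0.88. Between the lines, the change differed by 0.69 at 24 h (SE 0.06, edgeR adjusted p = 2.8e-08) and −1.06 at 48 h (SE 0.06, adjusted p = 4.3e-11). All 9 calls for HMOX1 held in all 28 alternatives.

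The rate-limiting enzyme of glutathione synthesis, glutamate-cysteine ligase, consists of a catalytic subunit, GCLC, and a modifier subunit, GCLM. GCLC (ENSG00000001084, minus strand of chr6:53497341-53616970) was at 35.0, 35.7 and 33.5 CPM at 0 h in HepG2, at 31.8, 28.9 and 29.6 at 24 h, and at 35.4, 37.6 and 40.2 at 48 h. In APOA4-KO it was at 29.6, 29.9 and 29.4 CPM at 0 h, at 43.2, 45.3 and 41.9 at 24 h, and at 51.1, 45.8 and 46.5 at 48 h. The edited line began below HepG2 and ended above it, without overlap at any time. The log2 fold change between the lines was −0.23 at 0 h (SE 0.05, edgeR adjusted p = 0.003), 0.53 at 24 h (SE 0.05, adjusted p = 1.1e-07) and 0.34 at 48 h (SE 0.05, adjusted p = 2.6e-05). GCLC rose from 0 h in APOA4-KO by 1.47-fold at 24 h and 1.61-fold at 48 h. In HepG2 it fell by 0.21 on the log2 scale at 24 h (edgeR adjusted p = 0.007) and had a change of 0.12 at 48 h (95% interval 0.00 to 0.23, adjusted p = 0.125), which was called without HepG2 48 h replicate 1 (0.18, adjusted p = 0.033). The change differed between the lines by 0.76 at 24 h (SE 0.08, edgeR adjusted p = 3.5e-07) and by 0.57 at 48 h (SE 0.08, adjusted p = 7.4e-06). With limma on log2(FPKM + 1), the line difference at 48 h was 0.16, the change in APOA4-KO at 48 h was 0.43 and the difference in change at 48 h was 0.32, all still called. With library totals alone, the line difference at 48 h was 0.19 (edgeR adjusted p = 0.008). In the GENCODE annotation, 6.2% of the exon bases of GCLC also lie in exons of other genes. Among these, AL033397.1 on the same strand had 63 to 333 counts per library.

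GCLM (ENSG00000023909, minus strand of chr1:93885205-93909456) had the lowest CPM of the 10 genes, between 8.31 and 11.7 over the 18 libraries, from 687 to 1062 counts. It was called in 1 of the 9 comparisons. At 24 h it was at 11.6, 11.03 and 10.6 CPM in APOA4-KO and at 9.66, 9.04 and 8.31 in HepG2, without overlap, with a log2 fold change of 0.30 (SE 0.08, edgeR adjusted p = 0.005). At 0 h and 48 h the lines overlapped, with log2 fold changes of 0.04 (95% interval −0.13 to 0.22) and −0.05 (−0.23 to 0.12). The value at 48 h depended on the scaling. It was called lower with library totals alone (−0.20, edgeR adjusted p = 0.050) and with limma on log2(FPKM + 1) and log2(FPKM + 0.1) (−0.13 and −0.19, limma adjusted p = 0.031 and 0.032). The change in HepG2 at 24 h, −0.16 (95% interval −0.33 to 0.02), was called in the same 3 alternatives. Without APOA4-KO 0 h replicate 3, the change to 24 h differed between the lines for GCLM (0.36, edgeR adjusted p = 0.022, against 0.26 and 0.109 with all libraries).

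TXNRD1 (ENSG00000198431, plus strand of chr12:104215779-104350305) encodes the cytosolic thioredoxin reductase, a selenoenzyme that keeps thioredoxin reduced. In HepG2 it was at 91.3, 89.7 and 95.2 CPM at 0 h, at 80.3, 79.0 and 85.9 at 24 h, and at 87.8, 95.2 and 95.5 at 48 h. The APOA4-KO libraries were at 79.6, 82.9 and 80.0 CPM at 0 h, at 95.3, 92.9 and 83.7 at 24 h, and at 110.1, 102 and 106 at 48 h. The libraries of the lines overlapped at 24 h only. The log2 fold change between the lines was −0.19 at 0 h (SE 0.05, edgeR adjusted p = 0.006), 0.15 at 24 h (SE 0.05, adjusted p = 0.017) and 0.19 at 48 h (SE 0.05, adjusted p = 0.003). The call at 24 h was lost without HepG2 24 h replicate 1 or 2 and without APOA4-KO 24 h replicate 1 or 2 (0.12 to 0.14, edgeR adjusted p = 0.060 to 0.078). The call at 48 h was lost in 4 of 28 alternatives. In 1 of these, scaling by library totals alone, the value was 0.04 (edgeR adjusted p = 0.571). TXNRD1 rose in APOA4-KO by 1.12-fold at 24 h and 1.31-fold at 48 h. In HepG2 it fell by 0.17 on the log2 scale at 24 h (edgeR adjusted p = 0.012), a call lost without HepG2 0 h replicate 3 or HepG2 24 h replicate 2 (−0.14 and −0.15, adjusted p = 0.067 and 0.057), and had a change of 0.01 at 48 h (95% interval −0.09 to 0.12). The change differed between the lines by 0.34 at 24 h and by 0.38 at 48 h (edgeR adjusted p = 0.00082 and 0.00023). With limma on log2(FPKM + 1) and no filter, the difference at 48 h was 0.19 and was no longer called (limma adjusted p = 0.089), nor were the line difference at 0 h (−0.15, adjusted p = 0.060) and the change in APOA4-KO at 24 h (0.12, adjusted p = 0.099). The change in APOA4-KO at 48 h was 0.23 with library totals alone.

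SRXN1 (ENSG00000271303, minus strand of chr20:646615-653370) encodes sulfiredoxin, which repairs overoxidized peroxiredoxins. The HepG2 libraries were at 63.9, 61.7 and 62.1 CPM at 0 h, at 56.3, 57.8 and 55.5 at 24 h, and at 52.3, 49.4 and 51.9 at 48 h. In APOA4-KO it was at 52.7, 50.9 and 53.5 CPM at 0 h, at 49.6, 51.8 and 59.2 at 24 h, and at 71.3, 67.0 and 70.0 at 48 h. HepG2 was the higher line at 0 h and APOA4-KO at 48 h, and the libraries overlapped at 24 h. The log2 fold change between the lines was −0.26 at 0 h (SE 0.05, edgeR adjusted p = 0.00063), −0.08 at 24 h (95% interval −0.19 to 0.03) and 0.44 at 48 h (SE 0.05, adjusted p = 5e-07). Without APOA4-KO 24 h replicate 3, the highest of its group, the value at 24 h was −0.14 (edgeR adjusted p = 0.010). At 48 h, SRXN1 fell from 0 h in HepG2 by 0.29 and rose in APOA4-KO by 0.41 on the log2 scale, a difference of 0.70 (SE 0.07, edgeR adjusted p = 2.6e-07). With library totals alone, the line difference at 48 h was 0.29 and the change in APOA4-KO was 0.25, both still called. The fall in HepG2 at 24 h was −0.15 (edgeR adjusted p = 0.036), and the call was lost without any of the HepG2 0 h libraries or without HepG2 24 h replicate 1 or 3 (−0.15 to −0.12, adjusted p = 0.056 to 0.134). The line difference in the change to 24 h, 0.18 (adjusted p = 0.070), was called with library totals alone, with limma, and in 4 refits without a library, namely HepG2 48 h replicate 2, APOA4-KO 0 h replicate 3, APOA4-KO 24 h replicate 1 or APOA4-KO 48 h replicate 1 (0.19 to 0.24, adjusted p = 0.009 to 0.049). In the GENCODE annotation, 85.0% of the exon bases of SRXN1 also lie in exons of AL121758.1 on the same strand, which had 0 to 8 counts per library.

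GPX2 (ENSG00000176153, minus strand of chr14:64939152-64942905) encodes a glutathione peroxidase best known from the gut epithelium, and it had the highest CPM of the 10 genes in every HepG2 group. In HepG2 it was at 874, 882 and 884 CPM at 0 h, at 471, 485 and 471 at 24 h, and at 711, 698 and 706 at 48 h. The APOA4-KO libraries were at 402, 396 and 391 CPM at 0 h, at 276, 284 and 294 at 24 h, and at 206, 217 and 209 at 48 h. No library of APOA4-KO reached the lowest library of HepG2 at any time. The HepG2 libraries at 48 h lay between those at 24 h and those at 0 h, whereas in APOA4-KO the libraries at 48 h lay below those at both other times. GPX2 was lower in APOA4-KO by 2.22-fold at 0 h (log2 fold change −1.15, SE 0.02, edgeR adjusted p = 5.7e-17), by 1.67-fold at 24 h (−0.74, SE 0.02, adjusted p = 9.3e-15) and by 3.34-fold at 48 h (−1.74, SE 0.02, adjusted p = 4.1e-20). From 0 h it fell by 0.89 and then 0.32 in HepG2, and by 0.48 and then 0.91 in APOA4-KO, on the log2 scale. The fall was shallower in APOA4-KO at 24 h (difference 0.41, SE 0.03, edgeR adjusted p = 1.6e-08) and deeper at 48 h (−0.59, SE 0.03, adjusted p = 5.5e-11). All 9 calls for GPX2 held in all 28 alternatives.

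GPX4 (ENSG00000167468, plus strand of chr19:1103926-1106791) encodes the selenoenzyme that reduces lipid hydroperoxides in membranes and restrains ferroptosis. The HepG2 libraries were at 347, 342 and 354 CPM at 0 h, at 326, 338 and 326 at 24 h, and at 378, 364 and 366 at 48 h. In APOA4-KO it was at 282, 279.7 and 274 CPM at 0 h, at 239, 244 and 257 at 24 h, and at 304, 293 and 281 at 48 h. The lines were apart at every time, with all libraries of APOA4-KO below those of HepG2. The log2 fold change was −0.32 at 0 h (SE 0.03, edgeR adjusted p = 1.5e-07), −0.42 at 24 h (SE 0.03, adjusted p = 9.6e-10) and −0.34 at 48 h (SE 0.03, adjusted p = 1.7e-08). Changes with time were small. GPX4 fell in APOA4-KO at 24 h by 0.17 on the log2 scale (edgeR adjusted p = 8.6e-05) and rose in HepG2 at 48 h by 0.09 (adjusted p = 0.034), the latter call being lost without HepG2 0 h replicate 2 or HepG2 48 h replicate 1 (adjusted p = 0.055 and 0.062). The change in APOA4-KO at 48 h was 0.07 (95% interval 0.01 to 0.13, adjusted p = 0.061), and it was called in 11 refits without a library (0.09 to 0.10, adjusted p = 0.011 to 0.038). With scaling by library totals alone it was −0.09 (edgeR adjusted p = 0.016), so its direction depends on the scaling. In HepG2 at 24 h the change was −0.08 (adjusted p = 0.073). It was called with library totals alone and with limma (−0.15), and without HepG2 24 h replicate 2 or APOA4-KO 48 h replicate 3 (−0.09 and −0.08, edgeR adjusted p = 0.048 and 0.050). The change did not differ detectably between the lines at 24 h (difference −0.10, 95% interval −0.19 to −0.01, adjusted p = 0.094) or at 48 h (−0.02, −0.11 to 0.07). With library totals alone the difference at 48 h was −0.19 and called (edgeR adjusted p = 0.00087), and with DESeq2's size factors or Wald test the difference at 24 h was −0.14 and called.

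Levels of different genes were compared as FPKM, a count corrected for gene length and for library total. GPX2 had the highest FPKM of the 10 genes in every group, from 656 ± 3.62 (SD, n = 3) in HepG2 at 0 h down to 143 ± 3.53 in APOA4-KO at 48 h. GPX4 ranged from 126 ± 3.29 in APOA4-KO at 24 h to 191 ± 3.24 in HepG2 at 48 h, and NQO1 from 55.6 ± 2.14 in APOA4-KO at 48 h to 189.6 ± 1.24 in HepG2 at 0 h. In APOA4-KO at 48 h, the ranges of mean ± SD of GPX2 and GPX4 (136 ± 6.02) overlapped. HMOX1 was the fourth highest in HepG2 at 0 h, at 27.9 ± 0.860 FPKM beside KEAP1 at 27.2 ± 0.745, where the ranges overlapped too, and the eighth in APOA4-KO at 48 h, at 10.2 ± 0.261. In APOA4-KO at 0 h, HMOX1 and SRXN1 were at 21.05 and 21.03 FPKM. SRXN1, TXNRD1, NFE2L2 and GCLC followed in that order in HepG2 at 0 h, and GCLM was the lowest in every group, at 1.57 to 2.09. The FPKM of NFE2L2, 6.13 to 11.3, rests on an implied length of 15317 bases, whereas the annotation gives 5979 exon bases. Its place in the order depends on that length.

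**Figure D4:**
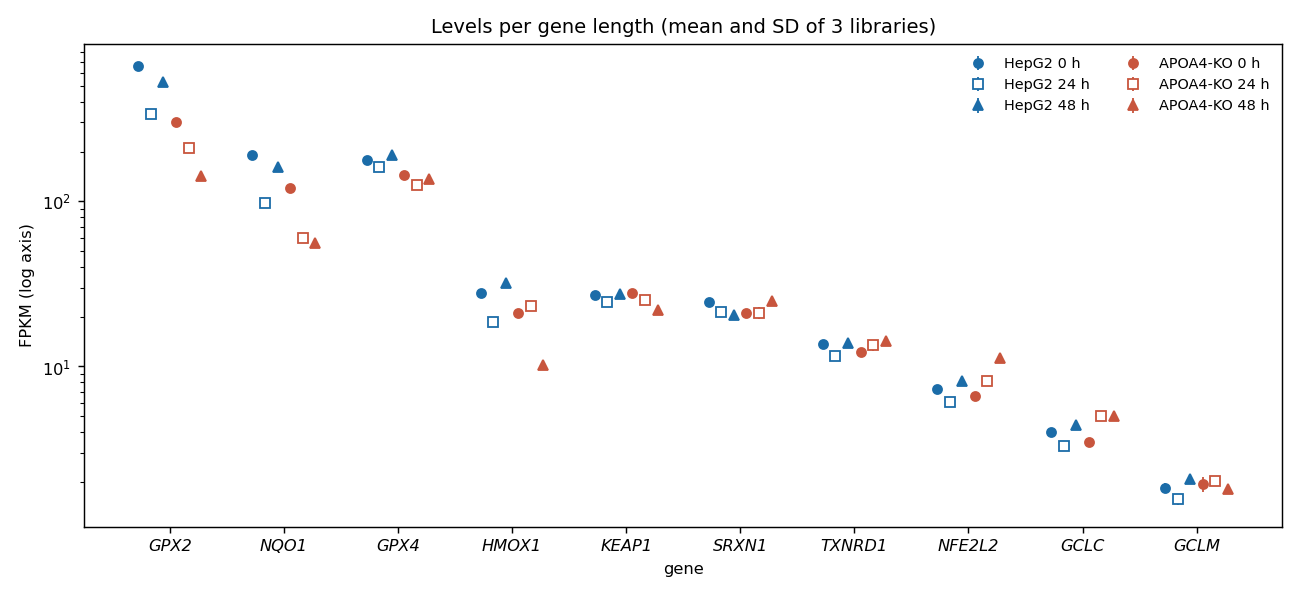
FPKM of the 10 genes in the 6 groups on a log axis, ordered by the level in HepG2 at 0 h. Points are means and bars are the SD of 3 libraries, blue for HepG2 and red for APOA4-KO, with circles for 0 h, squares for 24 h and triangles for 48 h. GPX2 leads at every time, and the largest distances between red and blue are those of GPX2, NQO1 and HMOX1 at 48 h.

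The wider pathway was read from 6 lists with 73 other genes, of which 72 were tested. At 48 h, 18 of the 72 were called higher in APOA4-KO (23.5% of all tested genes) and 46 lower (27.3%). Their median log2 fold change was −0.32 beside −0.04 over all genes. At 0 h these counts were 8 (12.9%) and 36 (17.6%), and at 24 h they were 14 (23.6%) and 42 (24.6%). From 0 h to 48 h, 10 rose (13.1%) and 33 fell (14.6%) in HepG2, and 18 rose (23.9%) and 42 fell (25.9%) in APOA4-KO. At 24 h, the corresponding counts were 10 (11.4%) and 41 (18.3%) in HepG2 and 14 (21.5%) and 43 (22.8%) in APOA4-KO.

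Among the 10 genes of NRF2 control and partners, 5 were called higher in APOA4-KO at 48 h (23.5% of all genes) and 2 lower (27.3%). The small MAF proteins, which pair with NRF2 or BACH1 on DNA, led this list: MAFF was higher by 5.88-fold (log2 fold change 2.56, SE 0.13, edgeR adjusted p = 2.7e-12), MAFK by 5.49-fold (2.46, SE 0.09, adjusted p = 1.8e-14) and MAFG by 3.34-fold (1.74, SE 0.05, adjusted p = 2.7e-16). From 0 h to 48 h, MAFK rose in APOA4-KO by 2.30 on the log2 scale and fell in HepG2 by 0.40. The repressor BACH1 rose by 1.87 in APOA4-KO and by 0.67 in HepG2. MAFF rose by 2.32 in APOA4-KO and by 0.41 in HepG2 (edgeR adjusted p = 1.1e-11 and 0.017). By 24 h MAFF had risen by 1.53 in APOA4-KO and by 1.36 in HepG2. These changes to 24 h did not differ detectably between the lines (0.17, edgeR adjusted p = 0.539). MAFF was higher in APOA4-KO at 0 h too (0.65, edgeR adjusted p = 0.00046).

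Of the 13 genes of glutathione synthesis, supply and turnover, 6 were called higher (23.5% of all genes) and 6 lower (27.3%) in APOA4-KO at 48 h. GLRX, a glutaredoxin that uses glutathione to reduce mixed disulfides, was higher by 2.01-fold (log2 fold change 1.01, SE 0.07, edgeR adjusted p = 5.4e-10). GSS, the synthetase of the last step of glutathione synthesis, was lower by 1.83-fold (−0.87, SE 0.03, adjusted p = 5.3e-14). It was lower at 0 h as well (−0.55). CTH, which makes cysteine from cystathionine, was higher by 1.82-fold (0.87, SE 0.13, edgeR adjusted p = 1.1e-05). Earlier, CTH was lower in APOA4-KO at 24 h (−0.36, edgeR adjusted p = 0.025), and its value at 0 h was −0.32 (adjusted p = 0.068). From 0 h to 48 h, CTH fell in HepG2 by 0.92 on the log2 scale (edgeR adjusted p = 1.8e-05). In APOA4-KO its change was 0.26 (adjusted p = 0.096). SLC7A11, the cystine importer, fell from 0 h to 48 h in both lines, by 0.71 in HepG2 and by 0.46 in APOA4-KO on the log2 scale.

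Among the 13 tested peroxidases, thioredoxins and superoxide enzymes, 12 were called lower in APOA4-KO at 48 h (27.3% of all genes) and 1 higher (23.5%). The median was −0.49. GPX1, the ubiquitous glutathione peroxidase, was lower by 2.31-fold (log2 fold change −1.21, SE 0.03, edgeR adjusted p = 1.2e-16), PRDX2 by 1.67-fold and PRDX1 by 1.59-fold, the last pair being peroxiredoxins. At 0 h, GPX1, PRDX2 and PRDX1 were lower in APOA4-KO as well, with log2 fold changes of −0.70, −0.17 and −0.08. GPX3, the secreted plasma form, was the gene called higher at 48 h (0.17, SE 0.02, edgeR adjusted p = 3.3e-07), and it is named for this comparison after its value was seen. At 0 h and 24 h GPX3 was lower in APOA4-KO, by log2 fold changes of −0.52 and −1.53 (edgeR adjusted p = 2.4e-13 and 2e-20). It rose from 0 h to 48 h in both lines, by 0.59 in HepG2 and by 1.28 in APOA4-KO on the log2 scale. NADPH supply feeds both glutathione and thioredoxin reductases. Of its 7 genes, 5 were called lower in APOA4-KO at 48 h (27.3% of all genes) and 1 higher (23.5%). IDH1, the cytosolic isocitrate dehydrogenase, was lower by 1.89-fold (−0.92, edgeR adjusted p = 8.5e-17) and TALDO1, a transaldolase, by 1.63-fold (−0.70, adjusted p = 1.5e-12). At 24 h, IDH1 was higher in APOA4-KO (0.37, edgeR adjusted p = 4e-11). Both also fell from 0 h to 48 h in HepG2, by 0.26 and 0.25 on the log2 scale.

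Of the 11 glutathione transferases, 8 were called lower (27.3% of all genes) and 2 higher (23.5%) in APOA4-KO at 48 h. GSTA1 was lower by 9.18-fold (log2 fold change −3.20, SE 0.08, edgeR adjusted p = 1.5e-16), with 5.14 CPM in APOA4-KO and 47.2 CPM in HepG2. At 0 h and 24 h, GSTA1 was lower in APOA4-KO as well, with log2 fold changes of −1.02 and −0.58. GSTA1 and GSTA2 are nearly identical paralogs, so the split of reads between them is uncertain. GSTA4 and MGST3 were lower by 1.84-fold and 1.78-fold. Of the 18 other NRF2 target genes, 13 were called lower (27.3% of all genes) and 3 higher (23.5%). SLC48A1, a heme transporter, was lower by 4.56-fold (−2.19, SE 0.07, edgeR adjusted p = 1.2e-14), AKR1B10, an aldo-keto reductase, by 4.28-fold (−2.10, SE 0.07, adjusted p = 4.8e-15), and EPHX1, the microsomal epoxide hydrolase, by 2.63-fold (−1.40, SE 0.03, adjusted p = 3.7e-18). SLC48A1, AKR1B10 and EPHX1 were already lower in APOA4-KO at 0 h, with log2 fold changes of −1.89, −1.67 and −1.13. At 24 h the values were −2.04, −0.65 and −1.29. Their changes from 0 h to 48 h differed between the lines by −0.30, −0.43 and −0.26. OSGIN1 went the other way and rose in APOA4-KO from 0 h to 48 h by 1.68 on the log2 scale (SE 0.04, edgeR adjusted p = 3.8e-16). Relative to HepG2, OSGIN1 was lower in APOA4-KO at 0 h (−0.53) and higher at 48 h (0.81). It also rose in HepG2 from 0 h to 48 h, by 0.34 (edgeR adjusted p = 7e-06). AKR1C1 fell over the same time by 0.65 in HepG2 and 0.66 in APOA4-KO, and AKR1C2 by 0.50 and 0.99. These too are close paralogs.

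**Figure D5:**
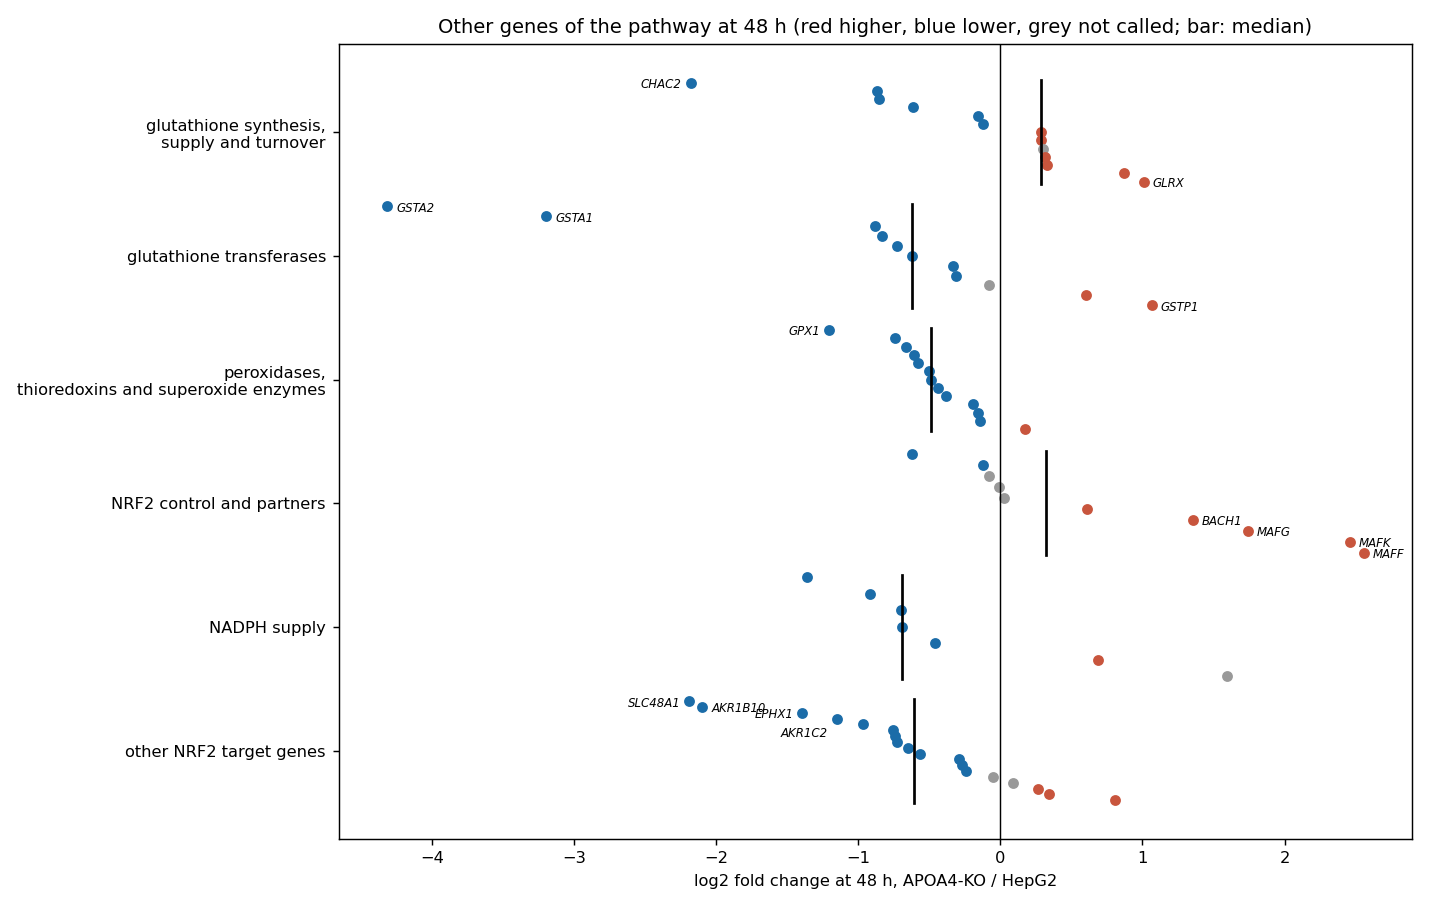
Log2 fold change at 48 h, APOA4-KO over HepG2, of the 72 tested genes of the 6 wider lists. Each point is a gene, red called higher, blue called lower and grey not called, black bars are list medians, and genes at or beyond −1 or 1 are named except in the NADPH list. The MAF genes and BACH1 lie to the right and most other lists to the left, where the peroxidase list has 12 of its 13 points below 0.

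The genes whose levels followed each of the 10 most closely were ranked by Pearson's r of log2 CPM over the 18 libraries, among 10242 genes with a mean of at least 5 CPM. The points share 6 group means and the scaling of the libraries, and r is given as a description. The level of NQO1 ran closest to those of CEBPA (r = 0.99), SPRYD4 (0.99) and FDXR (0.99). GPX2 ran closest to TP53I3 (0.99), TCTA (0.99) and PEPD (0.99), HMOX1 to AIFM1 (0.97), USP40 (0.97) and GOLGA1 (0.97), and NFE2L2 to ARCN1 (0.98), OXR1 (0.98) and RSRC2 (0.97). For GCLM and TXNRD1, which varied little, the closest genes were CEP120 (0.89) and UGDH (0.90). None of the 10 genes was among the 3 closest of another.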

How the data were processed

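RNA was sequenced from 18 libraries in 6 groups of 3. The authors deposited a table of counts per gene, and a second deposited table holds FPKM for 33601 genes. The submitters' processing notes name fastp, HISAT2, StringTie and GRCh38.p13, whereas the methods of the study name featureCounts, so the tool that made the counts is not settled. Counts of 4, 8 and 12 were in excess of neighbouring values (ratios of 2.66 to 3.12, 2.06 to 2.55 and 1.58 to 2.19), and a count may therefore not be a single read pair. Strand and multimapping settings are not given in the sources used here. Over 4274 genes, the deposited FPKM equalled the count divided by a fixed length and the library total (median deviation 0.1%, 99th percentile 0.344%). Of the 61806 genes, 28200 had no count. Library totals of 76481820 to 91604947 limited the precision of GCLM most, at 687 to 1062 counts.

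Counts were filtered with filterByExpr (19743 genes), TMM-scaled and fitted in edgeR 4.0.16 (R 4.3.3) with a coefficient for each group and all 18 libraries, as 9 comparisons. Adjusted p-values are Benjamini-Hochberg over all tested genes, with a threshold of 0.05 and a log2 fold limit of 1, and intervals are 95% intervals of the fitted log2 fold change. Alternatives used other scalings, no filter, counts divided by 4, DESeq2 1.42.0, limma 3.58.1 on log2(FPKM + 1) and log2(FPKM + 0.1), the compared groups alone, the replicate number as a block, and each library left out. Scripts were tested on simulated data. Libraries of a group differed by more than sampling noise (chi-square per gene of 10.33 to 23.41), so all were kept. Same-numbered libraries did not deviate together (45 pairs, r = −0.144 to 0.051), so the numbers were not taken as pairs.

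The 10 genes and the wider lists were chosen with earlier results of these data known. Up to 3 genes were named per wider list and comparison, those called with the largest change, given a mean count of 500 or more in whichever group was higher and libraries that did not overlap. The closest patterns were ranked by Pearson's r of log2 CPM (prior count 2) among genes with a mean of at least 5 CPM. Gene overlaps are from GENCODE version 29. SOD2 of the wider lists is not analysed here, and the values of 1 other listed gene are not reported here.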

Additional observations from a re-analysis of the deposited data

Results flagged for a closer look

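The change from 0 h differed between HepG2 and APOA4-KO in 14 cases, each by a test of the difference itself in edgeR (adjusted p under 0.05). Among all tested genes, the change to 24 h was called more positive in APOA4-KO for 16.8% and more negative for 15.4%. For the change to 48 h these shares were 18.6% and 17.8%. Values are APOA4-KO minus HepG2 on the log2 scale. At 24 h the difference in change was 0.50 for NFE2L2, 0.69 for HMOX1, 0.76 for GCLC, 0.34 for TXNRD1, 0.41 for GPX2 and −0.11 for NQO1. At 48 h it was 0.78 for NFE2L2, 0.57 for GCLC, 0.38 for TXNRD1 and 0.70 for SRXN1, and it was −0.18 for KEAP1, −0.72 for NQO1, −1.06 for HMOX1 and −0.59 for GPX2. HMOX1 and GPX2 had a positive difference at 24 h and a negative one at 48 h.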

How the results depend on the processing

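Of 90 results (10 genes in 9 comparisons), 68 were called, and 56 of these calls held in all 28 alternatives. Over all tested genes, 11.4% to 23.9% were called higher and 14.6% to 27.3% lower, depending on the comparison. No called value changed its sign. With only the compared groups in the fit, 4 of the 10 genes rather than 7 were called from 0 h to 24 h in HepG2, whereas library totals alone and limma on FPKM called 10. Values near 0 that were not called changed sign. For KEAP1 between the lines at 0 h, values without a library ran from −0.02 to 0.04. For KEAP1 at 24 h the value was 0.03 with library totals alone and with limma. For KEAP1 in HepG2 at 48 h it was 0.01 with library totals, no filter or limma, 0.0014 with counts divided by 4 and 0.03 with the compared groups alone, and −0.01 to 0.04 without a library. For GCLM between the lines at 0 h, values without a library ran from −0.04 to 0.09. For GCLM in APOA4-KO at 48 h it was −0.09 with library totals and −0.06, −0.08 and −0.06 with limma. For SRXN1 in APOA4-KO at 24 h it was −0.001, −0.0011 and −0.001 with limma and −0.02 to 0.10 without a library. For GPX4 in APOA4-KO at 48 h it was −0.09 with library totals and with limma. For its line difference in the change to 48 h it was 0.01 with DESeq2 or its size factors, 0.02 with the compared groups alone, and up to 0.01 without a library, whereas it was −0.19 and called with library totals and with limma. The cause was not tested.

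With the replicate number as a block, 5 rather than 6 genes had a different change to 24 h between the lines, the call for NQO1 being lost (−0.11, edgeR adjusted p = 0.054). The block changed no other call. No library correlated best with its own number (0 of 18).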
